A study of Mus musculus with 14 samples.

Results

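The genes described here encode enzymes of the citric acid cycle and of the pyruvate and glutamate reactions around it, with the kinases that switch off pyruvate oxidation, a mitochondrial carrier and a transhydrogenase. They form a list of 36 gene symbols defined by function. Of the 36, 33 were measured among 12393 genes on mouse expression arrays, and Pdhx, Pdp1 and Slc25a1 were not analysed here. Each gene is represented by its probe set with the highest mean over all arrays, taken from probe sets with a single gene symbol. Of the 33 genes, 14 had 1 such probe set and 19 had several.

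The citric acid cycle oxidises acetyl-CoA in the mitochondrial matrix and passes the electrons to the respiratory chain. Pyruvate enters it as acetyl-CoA through the pyruvate dehydrogenase complex or as oxaloacetate through pyruvate carboxylase, and glutamate enters as 2-oxoglutarate through glutamate dehydrogenase or the transaminases. In liver the same intermediates supply glucose synthesis and nitrogen disposal. Isocitrate dehydrogenase (IDH) makes 2-oxoglutarate from isocitrate, in the cytosol and peroxisomes for IDH1 and in mitochondria for IDH2, and the tumour-associated forms IDH1 R132C and IDH2 R172K turn 2-oxoglutarate into 2-hydroxyglutarate.

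The cultures were hepatoblasts, progenitors that can give hepatocytes and bile duct cells, from wild-type mice at embryonic day 14. They had been immortalised by clonal-density plating, and whether all cultures descend from 1 clone is not given in the sources used here. Every culture carried a construct of a doxycycline-inducible system, which held no insert (the empty vector), IDH1 in its wild-type or R132C form, or IDH2 in its wild-type or R172K form. Cells with each of these 5 constructs were grown on plates coated with rat tail collagen, and cells with vector or R132C were also placed on uncoated dishes for at most 5 days, the study's assay of hepatocyte differentiation. The medium of all groups held serum, epidermal growth factor, insulin-like growth factor II and insulin. Doxycycline at 25 ng/mL was added in the IDH1 experiments, and its use in the vector and IDH2 cultures is not stated separately. Each of the 7 groups had 2 cultures, numbered 1 and 2, and 1 array a culture, which makes 14 arrays.

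Levels below are log2 of the deposited intensity, and a difference of 1 is a doubling. The array medians were 7.08 to 7.21, the lower quartiles 4.72 to 4.81, where probe sets are close to background, and replicates correlated at 0.994 to 0.998 across genes. R172K culture 1 had the lowest median intensity, 134.9, against 144.8 to 148.3 in the other arrays. Of 12 hepatoblast markers 11 were measured, and 8 of them were above the array median on every array, among them Afp at 9.09 to 11.63 and Hnf4a at 10.85 to 11.74, whereas Dlk1 and Igf2 stayed at 5.14 to 5.59 and 5.17 to 5.74 and Prox1 lay under the lower quartile everywhere. The summed level of the 8 measured hepatocyte markers was 7.68 to 8.04 on collagen, 10.15 to 10.23 in vector cells on uncoated plates and 9.02 to 9.33 in R132C cells there. Of the 8, 5 lay under the lower quartile on every array. Ttr ran from 5.77 to 9.31 and Cebpa from 5.69 to 9.07, while Alb stayed at 4.29 to 5.21. The list's median level was 4.21 on collagen and 4.27 without it in vector cells, and 4.31 and 3.99 in R132C cells. Summed levels of biliary markers were 14.50 to 14.74 on collagen, 14.09 to 14.26 in vector cells on uncoated plates and 14.32 to 14.36 in R132C cells there. Those of mesenchymal, blood and endothelial markers were 8.005 to 8.20, 7.49 to 8.18 and 7.44 to 7.68, with no gene of these last 3 lists above the median on every array. The mouse probe sets of Idh1 and Idh2 showed no rise with the introduced forms, with group means of 12.06 for Idh1 with wild-type IDH1 and 12.11 with vector, and of 10.82 for Idh2 with wild-type IDH2 and 10.82 with vector. The species of the introduced sequences is not given in the sources used here, so these levels do not check the labels.

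Promoter windows of 4 members are printed as examples. Gpt2, which differed most with the culture number among the members, is not one of them. The 4 windows are those of Glul and Cs, called for the plate in both cell types, and of Got1 and Pck2, whose levels on collagen differed with the culture number. They are the 250 bases before the gene's start in RefSeq (GRCm38.p6), 5′ to 3′ on the gene's strand, at chr1:153899679-153899928 (plus strand), chr10:128337477-128337726 (plus strand), chr19:43524606-43524855 (minus strand) and chr14:55540016-55540265 (plus strand). Capitals mark 3 short motifs found on either strand: the GC box GGGCGG, the CCAAT box, and TGATGNAA, an element read by C/EBP and ATF factors.
Glul: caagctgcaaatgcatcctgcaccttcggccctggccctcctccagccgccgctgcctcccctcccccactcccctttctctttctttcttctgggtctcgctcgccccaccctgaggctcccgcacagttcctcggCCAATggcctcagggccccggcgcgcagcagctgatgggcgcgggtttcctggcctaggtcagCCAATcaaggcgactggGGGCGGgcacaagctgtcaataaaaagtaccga
Cs: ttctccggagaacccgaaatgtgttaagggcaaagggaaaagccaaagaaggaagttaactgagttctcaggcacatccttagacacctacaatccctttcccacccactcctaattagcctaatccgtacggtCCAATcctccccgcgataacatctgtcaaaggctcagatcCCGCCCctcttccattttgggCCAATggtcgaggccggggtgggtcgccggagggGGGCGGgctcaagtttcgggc
Got1: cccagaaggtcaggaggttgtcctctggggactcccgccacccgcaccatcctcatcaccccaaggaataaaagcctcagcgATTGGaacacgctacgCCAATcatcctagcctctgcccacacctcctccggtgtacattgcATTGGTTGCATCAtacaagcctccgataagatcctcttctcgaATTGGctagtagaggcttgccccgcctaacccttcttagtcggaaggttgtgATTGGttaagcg
Pck2: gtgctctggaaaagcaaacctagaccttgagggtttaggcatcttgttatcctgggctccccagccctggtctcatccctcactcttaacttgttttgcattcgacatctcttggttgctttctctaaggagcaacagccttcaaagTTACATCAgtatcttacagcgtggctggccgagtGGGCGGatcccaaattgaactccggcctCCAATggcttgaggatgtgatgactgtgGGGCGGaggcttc

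Such windows were held for 30 of the 33 measured members, all but Nnt, Me2 and Sdhc. The GC box was present in 20 of the 30 (66.7%), against 35.4% of 27025 genes with a window, and the CCAAT box in 18 (60%), against 37.5%. These 27025 genes were not limited to genes measured on the arrays and were not matched to the members for level. Whether the shares are particular to these pathways was not tested. The C/EBP-ATF element was present in 2, Got1 and Pck2 (6.67%), against 3.91%, and it lay 102 to 95 bases before the start in Got1 and 103 to 96 in Pck2. In Got1 it directly followed 1 of the 5 CCAAT boxes. The letters CAAAGTCCA, a strong form of the HNF4A site, were in none of the 30 windows and in 0.451% of all genes' windows. A match describes the letters of the window and says nothing about binding in these cells.

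Most of these genes were well expressed in every group. The mean level over 14 arrays was above the highest array median for 30 of the 33 members and above the highest upper quartile, 9.59, for 24. Pdk4, a pyruvate dehydrogenase kinase known for its rise in fasting, was under the lower quartile on every array, with a highest level of 3.90. Across the 7 group means a member spanned a median of 0.43, against 0.38 for all genes. Within the 5 collagen groups the median span was 0.20, against 0.23. The median gap between replicates, over all 7 groups, was 0.097, against 0.12.

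**Figure D1:**
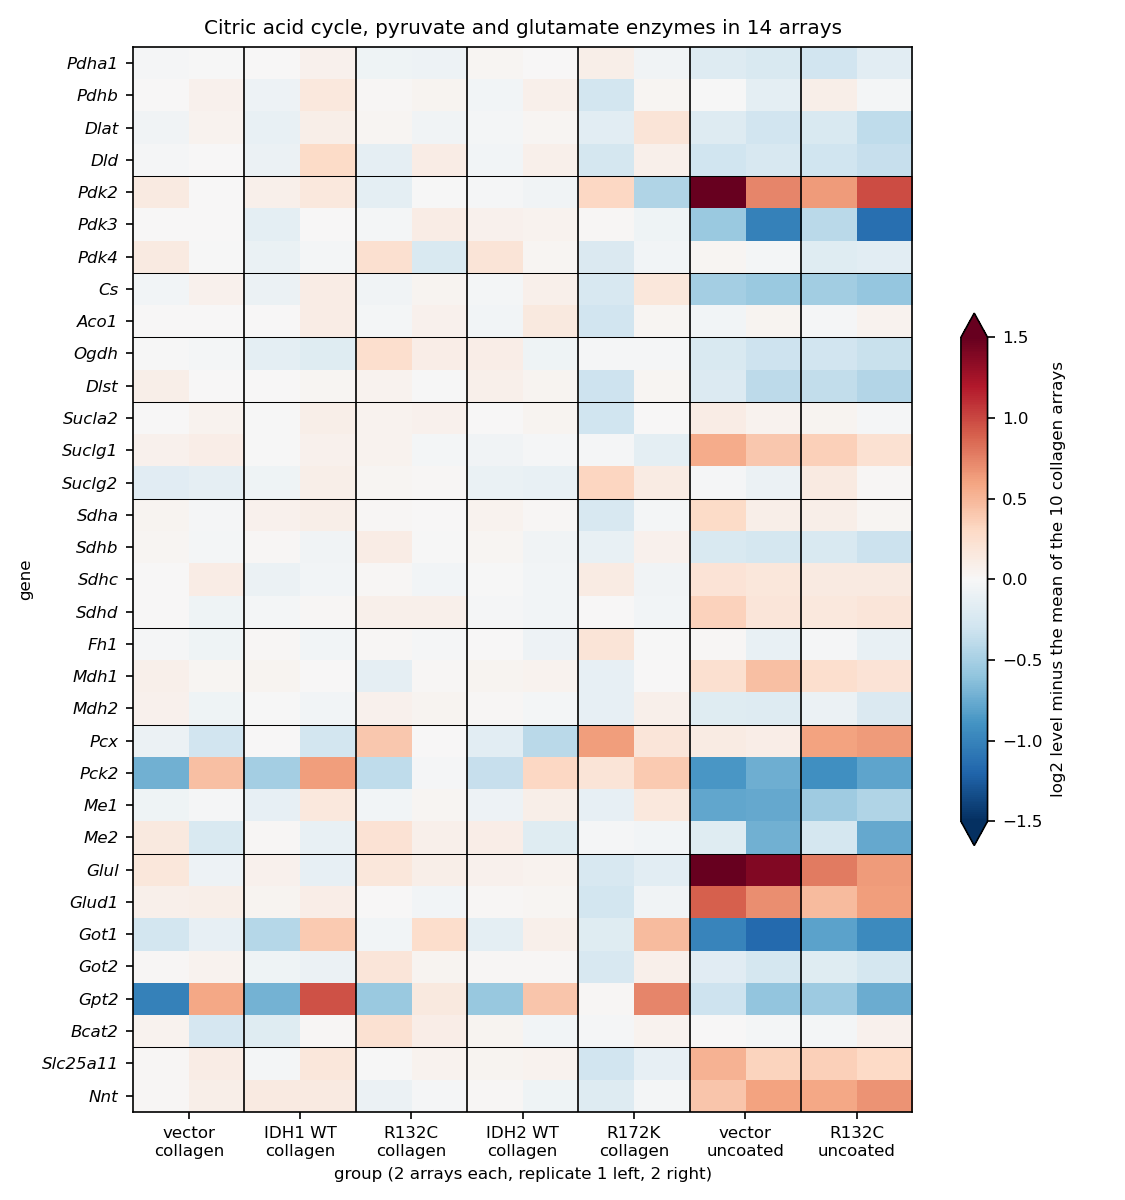
Log2 level of the 33 measured members (rows, by role) on each of the 14 arrays (columns, by group and culture number), shown as colour for the difference from that gene's mean over the 10 collagen arrays, with the colour scale ending at 1.5 either way. Glul, Pdk2, Pdk3, Cs, Got1 and Me1 stand out in the 4 uncoated arrays at the right, and Pck2 and Gpt2 differ between cultures 1 and 2 of the collagen groups.

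The first comparison asked how these genes differed between uncoated and collagen-coated plates, in vector cells and, separately, in R132C cells. A gene is called where the Benjamini-Hochberg adjusted p of the limma fit over all 12393 genes is under 0.05, and changes are log2 differences, uncoated minus collagen, with their standard error (SE), from 2 cultures a group. In vector cells 14 of 33 members were called, 8 higher and 6 lower on uncoated plates, while 29.3% of all genes were called, 15.1% higher and 14.2% lower. In R132C cells 16 members were called, 7 higher and 9 lower, while 25.9% of all genes were called, 13.6% higher and 12.3% lower. The median change of the members was -0.066 in vector cells and -0.15 in R132C cells, against -0.020 and -0.028 over all genes. The list as a whole did not move one way. In these bulk cultures, fewer cells of a type and less RNA per cell cannot be told apart.

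Kinases of the pyruvate dehydrogenase complex and genes of glutamate handling moved in both directions. Glul and Glud1, which make glutamine and 2-oxoglutarate from glutamate, were higher on uncoated plates, as were the kinase Pdk2, the cycle enzyme Suclg1, the cytosolic malate dehydrogenase Mdh1, the carrier Slc25a11 and the transhydrogenase Nnt. Cs, Dlst and Sdhb of the cycle itself, the cytosolic enzymes Me1 and Got1, and a further kinase, Pdk3, were lower. These directions were the same in vector and R132C cells, whose plate comparisons share no array but share the fit's estimate of the spread.

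No subunit of the pyruvate dehydrogenase complex was called in either cell type, with changes of -0.26 to -0.11 for Pdha1, Pdhb, Dlat and Dld in vector cells and of -0.31 to -0.0011 in R132C cells. A second Pdha1 probe set gave -0.36 and -0.45, and Pdha1 was called lower in both cell types with the mean of its probe sets and with array weights. In R132C cells Dld was called lower with only the arrays of the groups compared and with the culture number as a block. Dlat was called lower there with array weights, with arrays centred on their medians and with only the arrays of the groups compared. The transcripts of the kinases, which inactivate the complex by phosphorylation, did differ. Pdk2 was at 4.75 and 4.62 in vector cultures on collagen and at 6.15 and 5.34 on uncoated plates. In R132C cultures it was at 4.47 and 4.61 on collagen and at 5.25 and 5.59 without it. It rose by 1.06 (SE 0.25, adjusted p = 0.00641) in vector cells and by 0.88 (SE 0.25, adjusted p = 0.0211) in R132C cells. All 4 uncoated arrays were above all collagen arrays of these cells, but the collagen levels lie at the lower quartile of the arrays, so the size of the rise is uncertain. Pdk3 went the other way, from 8.01 and 8.01 to 7.45 and 6.99 in vector cells and from 7.98 and 8.12 to 7.61 and 6.88 in R132C cells. It fell by 0.79 (SE 0.20, adjusted p = 0.00934) and by 0.80 (SE 0.20, adjusted p = 0.00986), and the second uncoated culture was the lower one in both cell types.

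In the cycle itself, Cs, the citrate synthase that joins acetyl-CoA to oxaloacetate, was lower on uncoated plates. It lay at 12.67 and 12.78 in vector cells on collagen and at 12.20 and 12.15 on uncoated plates. The R132C cultures were at 12.66 and 12.75 on collagen and at 12.19 and 12.13 without it. Cs was 1.46-fold lower in vector cells (log2 -0.55, SE 0.11, adjusted p = 0.00255) and 1.46-fold lower in R132C cells (log2 -0.55, SE 0.11, adjusted p = 0.00338), and the 4 uncoated arrays lay close together. Its 2 further probe sets gave changes of -0.50 and -0.95 in vector cells and of -0.53 and -0.97 in R132C cells. Aco1, the cytosolic aconitase, changed by -0.011 and 0.0009 and was not called.

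Ogdh and Dlst encode the first and second component of the 2-oxoglutarate dehydrogenase complex, which oxidises 2-oxoglutarate to succinyl-CoA. Dlst went from 11.52 and 11.44 to 11.24 and 11.05 in vector cells and from 11.49 and 11.43 to 11.07 and 10.99 in R132C cells. It fell by 0.34 (SE 0.10, adjusted p = 0.0265) and by 0.43 (SE 0.10, adjusted p = 0.00848), with no overlap between plates. Ogdh lay at 9.41 and 9.26 in R132C cells on collagen and at 8.87 and 8.82 on uncoated plates, a fall of 0.49 (SE 0.096, adjusted p = 0.00243). In vector cells, at 9.15 and 9.13 on collagen and 8.93 and 8.84 without it, its change was -0.25 (SE 0.096, adjusted p = 0.0654) and was not called. The difference between the plate changes of Ogdh, -0.24 (SE 0.14, adjusted p = 0.9996), was not called either, so the data do not show that the cell types differed.

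Among the 3 subunits of succinyl-CoA ligase, which makes succinate and a nucleoside triphosphate, Suclg1 was called. It went from 11.16 and 11.19 to 11.65 and 11.50 in vector cells and from 11.15 and 11.06 to 11.45 and 11.33 in R132C cells. It rose by 0.40 (SE 0.083, adjusted p = 0.00274) and by 0.28 (SE 0.083, adjusted p = 0.0230). Its partners Sucla2 and Suclg2, the ATP- and GTP-forming beta subunits, changed by 0.05 and 0.10 in vector cells and by -0.048 and 0.051 in R132C cells, and neither was called.

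Succinate dehydrogenase, which is also complex II of the respiratory chain, did not move as a unit. Its iron-sulfur subunit Sdhb went from 12.19 and 12.12 to 11.92 and 11.89 in vector cells and from 12.27 and 12.15 to 11.93 and 11.84 in R132C cells. That is a fall of 0.25 (SE 0.08, adjusted p = 0.0325) and of 0.33 (SE 0.08, adjusted p = 0.00903). The membrane anchor Sdhd went from 11.45 and 11.37 to 11.79 and 11.62 in vector cells, a rise of 0.29 (SE 0.075, adjusted p = 0.00974). In R132C cells Sdhd was at 11.52 and 11.52 on collagen and at 11.59 and 11.62 without it, a change of 0.091 (SE 0.075, adjusted p = 0.435) that was not called. The opposite signs of Sdhb and Sdhd in vector cells are a contrast between subunits of 1 complex; the catalytic Sdha and the anchor Sdhc changed by 0.18 and 0.13 there and were not called. A second Sdhd probe set gave 0.26 in vector and 0.24 in R132C cells.

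Of fumarase and the malate dehydrogenases, the cytosolic Mdh1 was called. It went from 12.31 and 12.27 to 12.47 and 12.68 in vector cells and from 12.10 and 12.26 to 12.49 and 12.44 in R132C cells, a rise of 0.29 (SE 0.084, adjusted p = 0.0193) and of 0.28 (SE 0.084, adjusted p = 0.0233). Mdh2, the mitochondrial enzyme, had changes of -0.19 (adjusted p = 0.0850) and -0.20 (adjusted p = 0.0649) and was not called. Fh1, the fumarase, changed by -0.002 and -0.067, also without a call.

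The malic enzymes turn malate into pyruvate, Me1 in the cytosol with NADPH as product and Me2 in mitochondria. Me1 went from 12.14 and 12.18 to 11.41 and 11.43 in vector cells, a fall of 0.74 (SE 0.11, adjusted p = 0.000239). In R132C cells it went from 12.15 and 12.23 to 11.67 and 11.75, a fall of 0.48 (SE 0.11, adjusted p = 0.00551), so the plates did not overlap in either. Me2 went from 9.83 and 9.69 on collagen to 9.35 and 8.85 on uncoated plates in R132C cells, a fall of 0.67 (SE 0.20, adjusted p = 0.0233). In vector cells, at 9.76 and 9.39 on collagen and 9.43 and 8.88 without it, the plates overlapped and the change of -0.42 (SE 0.20, adjusted p = 0.139) was not called. A dimmer Me2 probe set changed by -0.016 and 0.025, so the Me2 fall rests on 1 of its probe sets.

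Pcx, the pyruvate carboxylase that refills oxaloacetate, was not called for the plate, with changes of 0.30 and 0.42. In R132C cells Pcx was called higher with array weights and with the culture number added to the fit as a block. Pck2, the mitochondrial phosphoenolpyruvate carboxykinase, moved by more than 0.5 without a call. Its arrays were at 10.52 and 11.70 in vector cells on collagen and at 10.37 and 10.51 without it, and in R132C cells at 10.87 and 11.22 on collagen and at 10.32 and 10.46 without it. The changes were -0.67 (SE 0.37, adjusted p = 0.213) and -0.66 (SE 0.37, adjusted p = 0.227). The collagen replicates of Pck2 lay far apart, and with only the arrays of the groups compared in the fit it was called in R132C cells (adjusted p = 0.00465). With the culture number added to the fit as a block it was called in both cell types.

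Glul, the glutamine synthetase that joins ammonia to glutamate and in adult liver marks the hepatocytes around the central vein, had the largest change of all members in vector cells. It lay at 10.92 and 10.67 in vector cells on collagen and at 12.53 and 12.13 on uncoated plates. In R132C cells it lay at 10.91 and 10.83 on collagen and at 11.53 and 11.39 on uncoated plates. Glul was 2.90-fold higher on uncoated plates in vector cells (log2 1.54, SE 0.13, adjusted p = 3.80e-06) and 1.5-fold higher in R132C cells (log2 0.59, SE 0.13, adjusted p = 0.00431). The R132C cultures on uncoated plates thus sat between the collagen cultures and the uncoated vector cultures, with no overlap on either side.

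Glud1, the glutamate dehydrogenase, went from 12.35 and 12.37 to 13.17 and 12.97 in vector cells and from 12.28 and 12.24 to 12.75 and 12.91 in R132C cells. It rose by 0.71 (SE 0.089, adjusted p = 7.86e-05) and by 0.57 (SE 0.089, adjusted p = 0.000561). A second probe set rose by 0.78 and 0.56. The aspartate aminotransferases, which pass nitrogen between glutamate and aspartate, were lower where they were called. Got1, the cytosolic one, went from 10.08 and 10.23 to 9.37 and 9.18 in vector cells and from 10.31 and 10.62 to 9.55 and 9.40 in R132C cells. It fell by 0.88 (SE 0.24, adjusted p = 0.0141) and by 0.99 (SE 0.24, adjusted p = 0.00883), and no uncoated array reached any collagen array. Got2, the mitochondrial one, went from 11.99 and 11.85 to 11.62 and 11.55 in R132C cells, a fall of 0.33 (SE 0.097, adjusted p = 0.0226). In vector cells, at 11.83 and 11.86 on collagen and 11.64 and 11.55 without it, the change of -0.25 (SE 0.097, adjusted p = 0.0694) was not called. A dimmer Got2 probe set gave 0.20 and -0.027, so its probe sets disagree. Gpt2, the mitochondrial alanine aminotransferase, and Bcat2, the mitochondrial branched-chain aminotransferase, changed by -0.23 and 0.088 in vector and by -0.44 and -0.15 in R132C cells, without a call.

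Both measured genes of the last role were higher on uncoated plates. Slc25a11, the carrier that exchanges 2-oxoglutarate for malate across the inner membrane, went from 9.82 and 9.91 to 10.33 and 10.14 in vector cells and from 9.79 and 9.86 to 10.16 and 10.11 in R132C cells. It rose by 0.37 (SE 0.10, adjusted p = 0.0153) and by 0.31 (SE 0.10, adjusted p = 0.0402). Nnt, which uses the proton gradient to make NADPH in mitochondria, went from 10.93 and 10.998 to 11.32 and 11.51 and from 10.83 and 10.90 to 11.49 and 11.59, and rose by 0.46 (SE 0.09, adjusted p = 0.00191) and by 0.68 (SE 0.09, adjusted p = 0.000207). Its second probe set rose by 0.54 and 0.68.

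**Figure D2:**
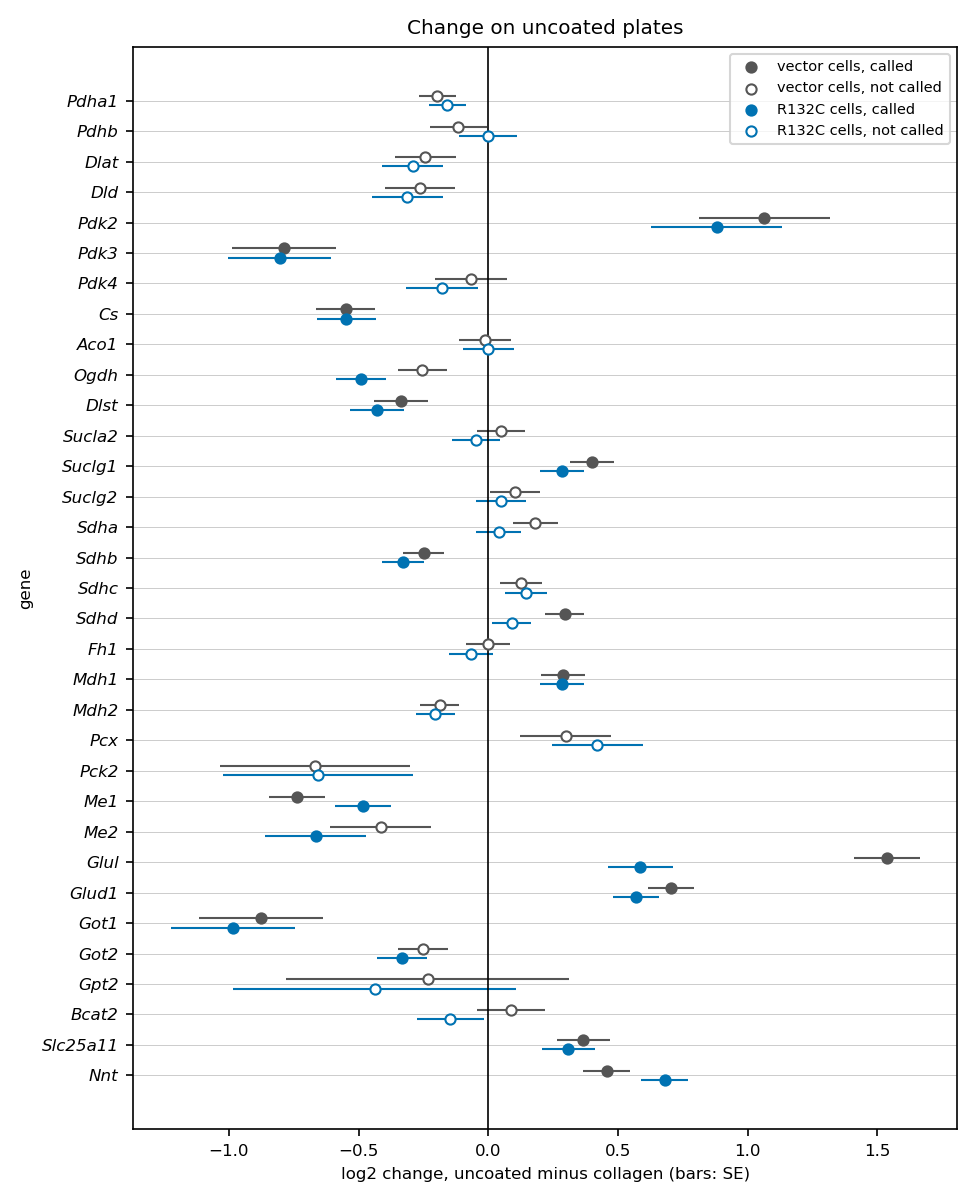
Log2 change of the 33 measured members between uncoated and collagen plates, in vector cells and in R132C cells, with bars of 1 SE; filled points are called at an adjusted p under 0.05. Glul, Pdk2 and Glud1 lie to the right and Got1, Pdk3 and Me1 to the left in both cell types.

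Of the members, 13 were called in both cell types, 7 higher and 6 lower in both. They make up 92.9% of the 14 called in vector cells and 81.3% of the 16 called in R132C cells, where the genes called in both made up 71.1% and 80.2% over all genes. Sdhd was called in vector cells alone and Got2, Me2 and Ogdh in R132C cells alone, and for none of these 4 was the difference between the cell types called. The counts moved when single cultures were left out. In vector cells 9 members were called without collagen culture 2 and 9 without uncoated culture 2, and in R132C cells 8 without collagen culture 1 and 7 without uncoated culture 2. With arrays centred on their medians the calls were 8 higher and 10 lower in vector cells and 4 higher and 11 lower in R132C cells.

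Cs, Glud1, Glul, Me1 and Nnt were called in both cell types with each array left out, as were Suclg1 in vector cells and Ogdh in R132C cells. The other plate calls did not all hold. In vector cells Dlst and Mdh1 lost the call without either collagen culture and without uncoated culture 2, with adjusted p up to 0.202 and 0.199, and Sdhb without any of the 4 cultures compared, up to 0.181. Got1 lost it without collagen culture 2 or uncoated culture 2 (up to 0.0880), Sdhd without collagen culture 2 or uncoated culture 1 (up to 0.122), and Slc25a11 without collagen culture 1 or uncoated culture 1 (up to 0.152). Pdk2 lost it without uncoated culture 1 (0.0938) and Pdk3 without uncoated culture 2 (0.105). Pck2, which was not called in the main fit, gained the call without vector collagen culture 1. Its change of -1.26 there rests on vector collagen culture 2 alone. In R132C cells Pdk2 and Me2 lost the call without either collagen culture and without uncoated culture 2, up to 0.168 and 0.246. Got1 and Pdk3 lost it without collagen culture 2 or uncoated culture 2, up to 0.0805 and 0.130, and Dlst and Sdhb without collagen culture 1 or uncoated culture 2, up to 0.0729 and 0.1001. Got2 and Mdh1 lost it without collagen culture 1 and without either uncoated culture, up to 0.185 and 0.214, and Suclg1 without either collagen culture and without uncoated culture 1, up to 0.161. Slc25a11, close to the threshold, lost it without any of the 4 R132C cultures compared or either wild-type IDH2 culture, up to 0.203. All these changes kept their sign. Other settings also ended calls, of Suclg1, Mdh1 and Slc25a11 in R132C cells with arrays centred on their medians (adjusted p = 0.0600, 0.0609 and 0.0639) and of Mdh1 there without the intensity trend (0.0549). In vector cells they ended those of Sdhd and Slc25a11 with only the arrays of the groups compared (0.0528 and 0.0524), of Dlst with the mean of its probe sets (0.0715) and of Sdhb without the intensity trend (0.0710). The mean of probe sets also ended the R132C calls of Me2 (0.282) and Got2 (0.263). Of members not called with all arrays, Pdha1, Mdh2, Ogdh and Got2 in vector cells and Pdha1, Dlat and Mdh2 in R132C cells were called without either R172K culture, and each of them under at least 1 other setting.

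Further genes of these pathways, a list of 48 of which 33 were measured, also moved both ways. In vector cells 6 rose and 9 fell on uncoated plates, and in R132C cells 5 rose and 8 fell. That is 45.5% and 39.4% of the list called, against 29.3% and 25.9% of all genes. Bckdha, a subunit of the branched-chain ketoacid dehydrogenase, rose by 1.36 (SE 0.15, adjusted p = 2.77e-05) in vector cells and by 1.51 (SE 0.15, adjusted p = 4.12e-05) in R132C cells. Adhfe1, a transhydrogenase that makes D-2-hydroxyglutarate, rose by 1.10 (SE 0.11) and 0.74 (SE 0.11). Bcat1, the cytosolic branched-chain aminotransferase, changed by -2.79 (SE 0.45) and -2.96 (SE 0.45), both called, where its mitochondrial counterpart Bcat2 was not called. Idh3a, a subunit of the NAD-linked isocitrate dehydrogenase of the cycle, changed by -0.91 (SE 0.12) and -0.996 (SE 0.12), and Aldh18a1, which starts proline synthesis from glutamate, by -1.16 (SE 0.30) and -0.92 (SE 0.30), all called. Pdk1, named here after its values were seen because it is the remaining kinase of the family, fell by 0.80 (SE 0.24, adjusted p = 0.0236) in vector cells and changed by -0.18 (SE 0.24, adjusted p = 0.647) in R132C cells. In all other comparisons none of these 33 genes was called.

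Other lists were set beside all genes, of which 29.3% were called for the plate in vector cells and 25.9% in R132C cells. All 22 measured cell cycle genes fell in vector cells, with a median of -1.38, and in R132C cells, where all 22 were lower, 20 were called, with a median of -0.96. Of 32 measured genes of mitochondrial structure and import, 2 rose and 7 fell in vector cells (median -0.16) and 1 rose and 9 fell in R132C cells (median -0.14). Their called shares, 28.1% and 31.25%, lay near those of all genes. Of the 8 measured hepatocyte markers, 2 were called higher in vector cells (list median 0.068), and 2 were called higher and 1 lower in R132C cells (list median -0.014). That is 25% and 37.5% of the list called. Of the 5 measured biliary markers, 3 were called higher and 2 lower in vector cells (list median 0.63), and 2 higher and 1 lower in R132C cells (list median -0.081). That is 100% and 60% of the list called. The part of these lists in the members' changes was not tested.

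The next comparisons asked whether R132C altered the response to the uncoated plate. For the difference between the plate changes, R132C minus vector, no member was called by limma, where 0.25% of all genes were called, and 1 member had an unadjusted p under 0.05. That member was Glul, whose rise was smaller in R132C cells by 0.95 on the log2 scale (SE 0.18, 95% confidence interval -1.34 to -0.56, adjusted p = 0.0561). It did pass the threshold without vector collagen culture 1, at an adjusted p of 0.045, and without vector uncoated culture 2, at 0.00624, and over all arrays left out 1 at a time the adjusted p ran from 0.00624 to 0.324. With all arrays it passed under cyclic loess (0.0402), with arrays centred on their medians (0.0352) and with array weights (0.0296). It also passed with the culture number added to the fit as a block (0.00849). Under 4 of the 8 other settings it did not pass, with adjusted p up to 0.132. The other 32 members had differences of -0.25 to 0.25, and the widest of their 95% intervals, that of Gpt2, ran from -1.88 to 1.47. Differences within these intervals could not be told from none.

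On uncoated plates, R132C cells were set directly against vector cells. One member was called, 1 of 33, against 2.39% of all genes, 0.896% higher and 1.49% lower. Glul was 1.83-fold lower in R132C cells, at 11.53 and 11.39 against 12.53 and 12.13 (log2 -0.87, SE 0.13, adjusted p = 0.00293). A second Glul probe set gave -1.21. Glul remained called in this comparison with each array left out and under each of the 8 other settings. On collagen the same cell types did not separate at this gene, with 10.91 and 10.83 in R132C and 10.92 and 10.67 in vector cells. Pcx moved by more than 0.5 without a call, from 7.27 and 7.24 in vector to 7.74 and 7.79 in R132C cells (0.51, SE 0.18, adjusted p = 0.181), and the groups did not overlap. Glud1, which rose with Glul on uncoated plates, differed by -0.24 (SE 0.089, adjusted p = 0.222) between R132C and vector cells there. In this comparison all 22 cell cycle genes were higher in R132C cells and 6 of them (27.3%) were called, with a list median of 0.59. The summed hepatocyte markers were lower in R132C cells. Of the 8 measured, 1 was called, lower in R132C cells, and the list median was -0.21. Whether the Glul difference goes with these was not tested.

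**Figure D3:**
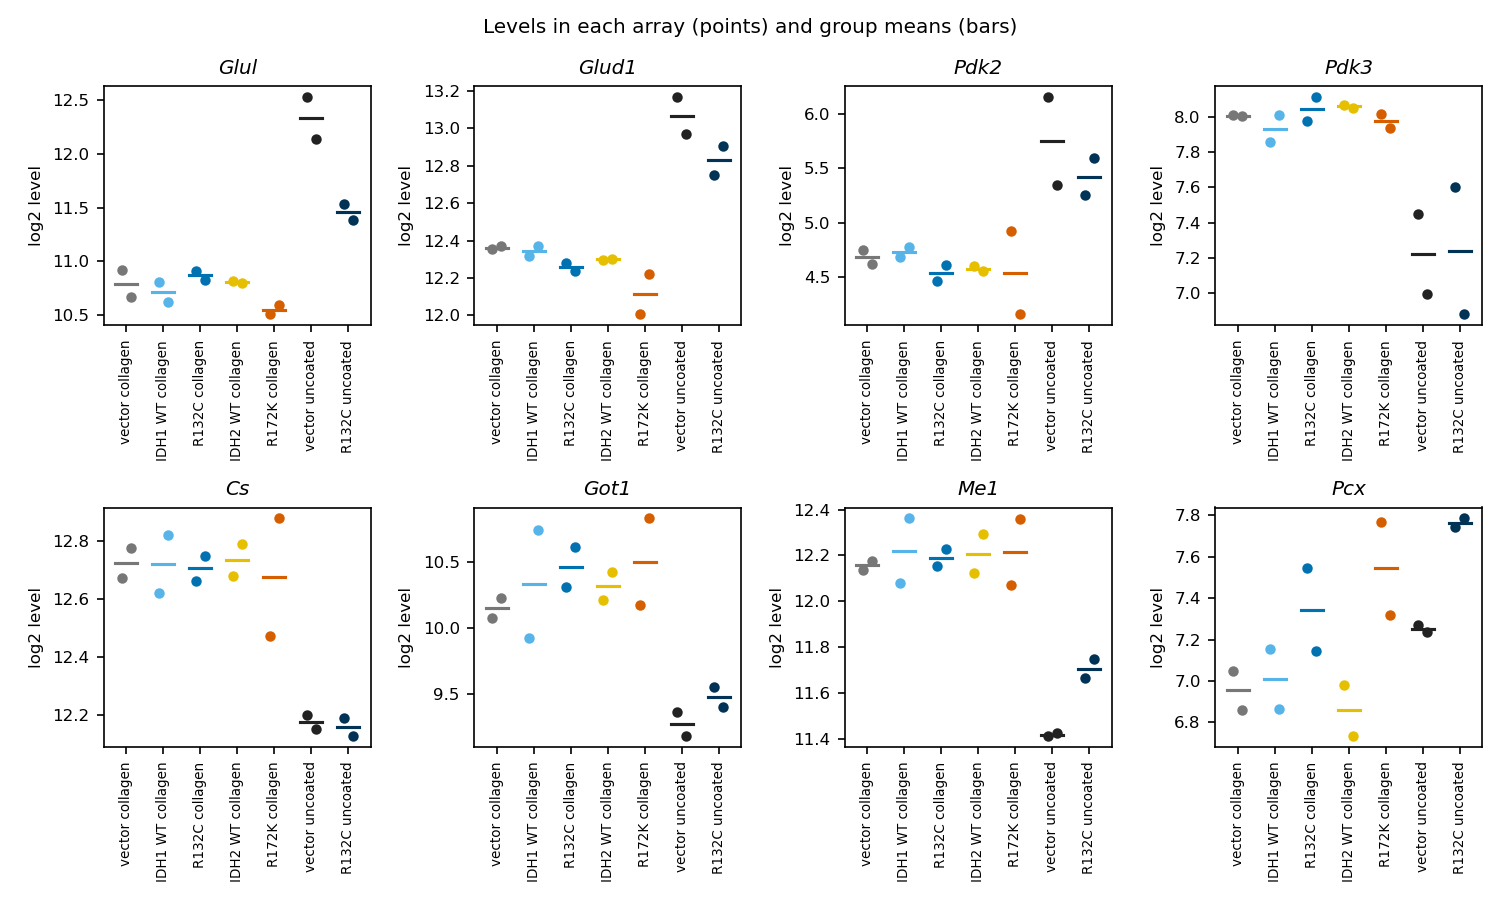
Log2 level on each of the 14 arrays of Glul, Glud1, Pdk2, Pdk3, Cs, Got1, Me1 and Pcx, by group; points are cultures, bars are group means, and the vertical scale differs between panels. In the Glul panel the uncoated R132C cultures, at 11.39 and 11.53, lie between the collagen cultures and the uncoated vector cultures, at 12.13 and 12.53.

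On collagen each mutant was set against its own wild type. No member passed the threshold in either comparison. With IDH1 R132C, no member was called by limma and 1 had an unadjusted p under 0.05, while 0.0484% of all genes were called. That member was Ogdh, at 9.01 and 8.98 with wild-type IDH1 and 9.41 and 9.26 with R132C, a difference of 0.34 (SE 0.096, adjusted p = 0.308). Its groups did not overlap. With IDH2 R172K no member was called and 3 had an unadjusted p under 0.05, while 1.73% of all genes were called, 0.597% higher and 1.14% lower. These were Pcx, Suclg2, at 9.35 and 9.34 with wild type and 9.77 and 9.58 with R172K (0.33, SE 0.097, adjusted p = 0.112), and Slc25a11 at -0.26 (SE 0.10, adjusted p = 0.222). Without R172K culture 2, 8 members were called against wild-type IDH2, Pcx and Suclg2 higher and Aco1, Dlst, Glud1, Got2, Sdha and Sucla2 lower, and 2332 of all genes. That value then rests on R172K culture 1, the array of the lowest median, with a spread assumed to be that of the other groups.

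Pcx was the 1 member called in the mean of both mutants. Its level was 7.05 and 6.86 with vector, 7.15 and 6.86 with wild-type IDH1 and 6.98 and 6.73 with wild-type IDH2. With R132C it was 7.54 and 7.14 and with R172K 7.77 and 7.32, and on uncoated plates 7.27 and 7.24 with vector and 7.74 and 7.79 with R132C. In every group on collagen culture 1 was the higher one, and culture 2 of R132C, at 7.14, was under culture 1 of wild-type IDH1, at 7.15, so that these groups overlapped narrowly. Pcx was higher by 0.34 (SE 0.18, adjusted p = 0.711) with R132C and by 0.69 (SE 0.18, adjusted p = 0.0703) with R172K, neither called. With the culture number added to the fit as a block, Pcx was called with R172K (adjusted p = 0.0140) and not with R132C. The mean of both mutant effects on Pcx was 0.51 (SE 0.12, limma adjusted p = 0.0414), or 1.43-fold. A call for 1 of 33 members is a share of 3.03%, near that of all genes, of which 3.61% were called, 1.18% higher and 2.44% lower. The call did not hold when any of 11 of the 14 arrays was left out, with adjusted p from 0.0105 to 0.183, and it was kept without vector collagen culture 1, without vector collagen culture 2 and without R172K culture 2. It was also lost with array weights (0.0884) and with only the arrays of the groups compared in the fit (0.0926). The effects of the 2 mutants on Pcx differed by 0.35 (SE 0.25, adjusted p = 0.839), which was not called.

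Between the mutants, the difference of the effects, R172K minus R132C, gave no call among members or all genes (0% called) by limma, with 3 members and 653 genes at an unadjusted p under 0.05. The 3 were Ogdh (-0.37, adjusted p = 0.839), Suclg2 (0.31, adjusted p = 0.839) and Glul (-0.41, adjusted p = 0.839). Pck2 and Gpt2 had differences of 0.56 (SE 0.52) and 0.78 (SE 0.77), above 0.5 but within their replicate spread. Without wild-type IDH1 culture 2 these 2 values became -0.0034 and -0.05.

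**Figure D4:**
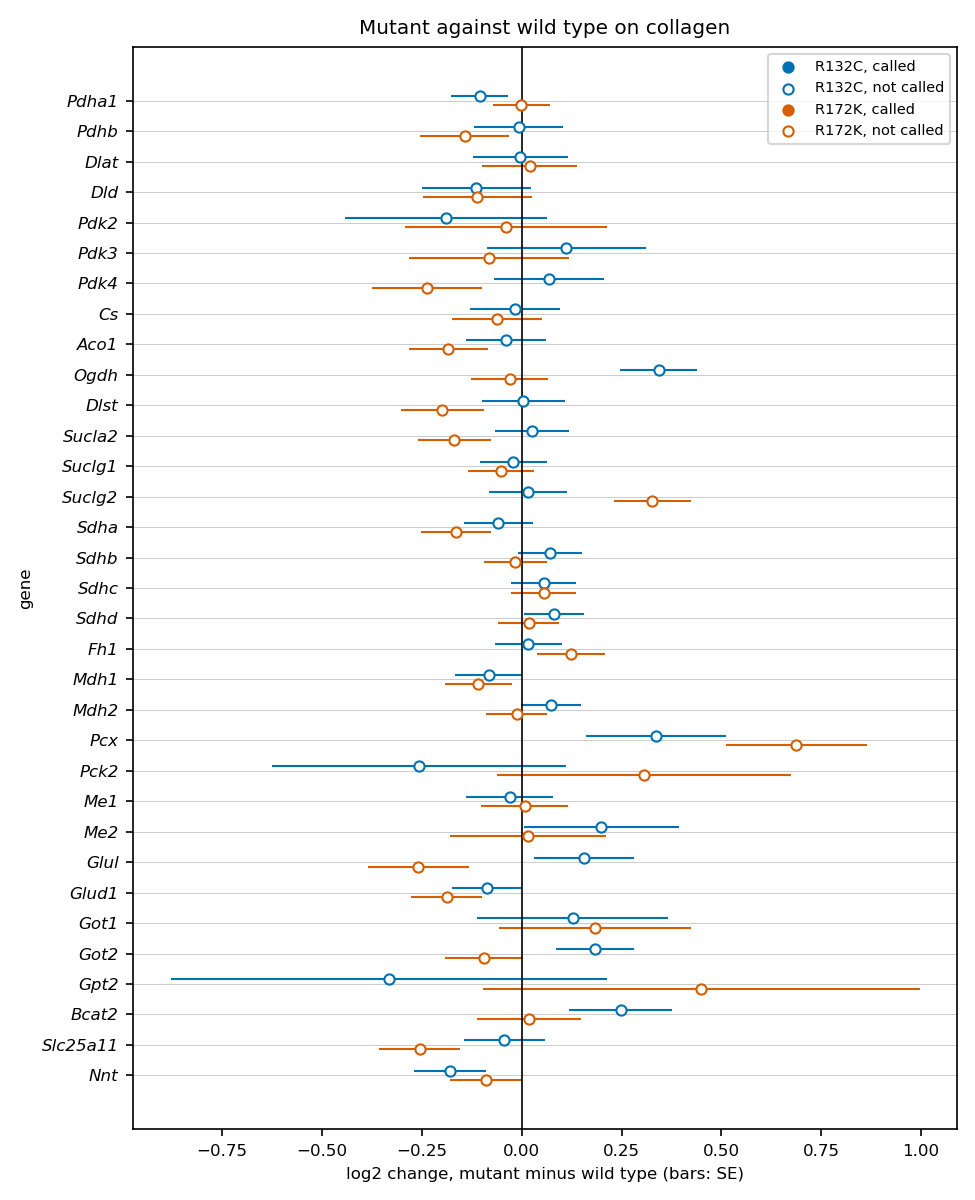
Log2 difference on collagen between R132C and wild-type IDH1 and between R172K and wild-type IDH2 for the 33 measured members, with bars of 1 SE; open points are not called. Pcx is the gene furthest to the right with R172K, and Pck2 and Gpt2 have the widest bars.

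Wild-type IDH1 and wild-type IDH2 were each set against vector on collagen. Against vector, no member was called by limma with either form and no member had an unadjusted p under 0.05, while 0% of all genes were called in each, with 128 and 116 genes at an unadjusted p under 0.05. The members' differences ran from -0.15 to 0.35 for IDH1 and from -0.11 to 0.17 for IDH2, with medians of 0.0037 and 0.0087. For Cs, Glul and Glud1 the intervals of the IDH1 difference were -0.25 to 0.24, -0.35 to 0.20 and -0.21 to 0.18, and of the IDH2 difference -0.23 to 0.26, -0.26 to 0.29 and -0.25 to 0.13. Changes within those intervals could not be told from none with 2 cultures a group.

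Several members differed with the culture number on collagen. Culture 2 was above culture 1 in all 5 collagen groups for 10 members and below it in all 5 for 4, together 42.4% of the 33, against 17.1% of all genes. Gpt2 had the widest gap, culture 2 minus culture 1, at a mean of 1.13 (0.71 to 1.67 over the 5 groups), which ranked 7 by size among 12393 genes. Its arrays were at 8.66 and 10.24 with vector, 8.96 and 10.63 with wild-type IDH1, 9.11 and 9.82 with R132C, 9.10 and 10.09 with wild-type IDH2 and 9.69 and 10.40 with R172K. On uncoated plates the order turned, with 9.36 and 9.07 in vector and 9.12 and 8.93 in R132C cells. Pck2 had a mean gap of 0.70 (0.19 to 1.18, rank 54). Its other collagen arrays were at 10.73 and 11.87 with wild-type IDH1, 10.90 and 11.56 with wild-type IDH2 and 11.44 and 11.63 with R172K. Got1 had a mean gap of 0.43 (0.15 to 0.82, rank 215), with 9.93 and 10.74 for wild-type IDH1, 10.21 and 10.43 for wild-type IDH2 and 10.18 and 10.83 for R172K. Pcx had the opposite order, with a mean gap of -0.32 (-0.45 to -0.19, rank 444). Got1 and Pck2 are the members whose printed promoter windows hold TGATGNAA, and the Gpt2 window does not hold it. The labels do not say what the culture numbers share, and what moved these transcripts between cultures was not tested.

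**Figure D5:**
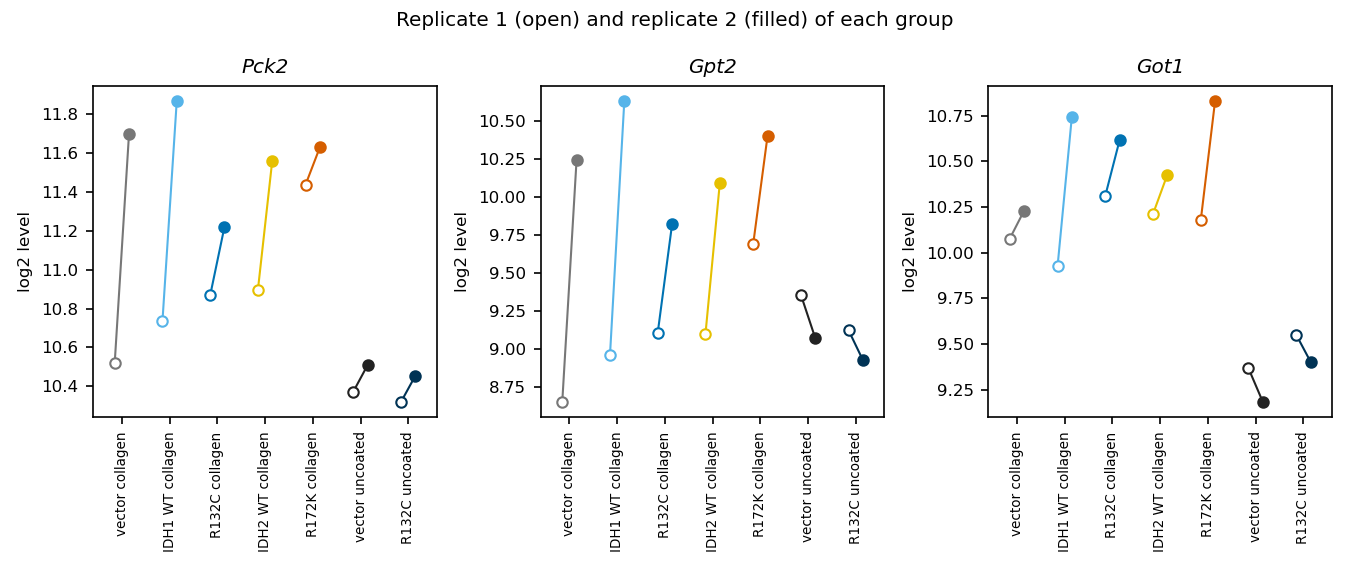
Log2 level of Pck2, Gpt2 and Got1 in culture 1 (replicate 1, open) and culture 2 (replicate 2, filled) of each of the 7 groups. In all 5 collagen groups culture 2 is the higher one for each gene, with the widest gaps for Gpt2.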

How the data were processed

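Total RNA from 14 cultures was read on Affymetrix Mouse 430Av2 arrays. Per the submitters' processing notes, the deposited probe set intensity came from RMA, whose version and settings are not given in the sources used here. Values ran from 5.84 to 26770 on a linear scale, so log2 of the deposited intensity was taken. RMA usually subtracts background and equalises arrays, which would hide a change shared by most genes. Of 22690 probe sets, 64 were controls, 691 had several symbols and 1555 had none. Each of 12393 genes was represented by its highest probe set on average, among those with 1 symbol. In 1 limma model (version 3.58.1, R 4.3.3, lmFit and eBayes with trend, 7 residual and 5.67 prior degrees of freedom) over all 14 arrays, 7 group means gave 10 comparisons, each adjusted by Benjamini-Hochberg over all genes. The procedure was also run on simulated data, with noise drawn independently for each array and the same spread in all groups. That run holds no deviations shared by same-numbered cultures, so it does not cover them.

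The members and the further lists were chosen with earlier results of these data known. Called members and members that moved by at least 0.5 are given on every array. Of each further list, up to 4 called genes per comparison, those with the largest change in either direction, are named. The labels do not say what the culture numbers share. Same-numbered cultures deviated together in some pairs of groups and not in others (r from -0.041 to 0.49, median 0.16, over 0.1 in 13 of 21 pairs). The main fit left the number out, and an alternative fit added it as a block. The alternatives were 8 other settings and each array left out in turn. Replicates are separate cultures, per the series text, and 2 a group limit the precision. Promoter windows came from RefSeq.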

Additional observations from a re-analysis of the deposited data

How the results depend on the processing

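Across 39 described member values, 32 of them called, and 22 alternatives, 772 of 856 recomputed values kept their direction and side of the threshold, 70 lost the call, 12 gained it and 2 reversed, and 13 called values passed under all alternatives. The reversals were the differences between mutant effects of Pck2 and Gpt2 without wild-type IDH1 culture 2, which ran from -0.0034 to 1.13 and from -0.0503 to 1.62 with 1 array left out. Called members numbered 12 to 18 for the plate in vector cells and 15 to 20 in R132C cells under the 8 other settings, and 9 to 18 and 7 to 19 with 1 array left out. For the difference between plate effects 1 member, Glul, was called with array weights, with arrays centred on their medians, with cyclic loess and with the replicate number as a block (adjusted p = 0.00849), and 0 to 1 with 1 array left out. For R172K against wild type 1, Pcx, was called with the replicate block (adjusted p = 0.0140), and 0 to 8 with 1 array left out. For the mean of both mutants 0 were called with array weights and 0 with only the arrays of the groups compared, and 0 to 5 with 1 array left out. The replicate block gave 17 and 19 called members for the plate in vector and R132C cells, Pck2 among them in both. Of all genes, the called count ran over all alternatives from 1660 to 4251 for the plate in either cell type, from 11 to 79 for their difference, from 71 to 505 for R132C against vector on uncoated plates, from 0 to 49 for R132C and from 9 to 2332 for R172K against wild type, from 109 to 1803 for their mean and from 0 to 85 for their difference. The cause of these shifts was not tested. Counts for the wild types against vector stayed at 0 members. Another background correction was not run, since the values are already summarised. Low levels limit Pdk2 and Pdk4.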

Other observations

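Genes named from the mitochondrial structure and import list moved both ways on uncoated plates. The list's called shares for the plate, 28.1% in vector and 31.25% in R132C cells, lay near the 29.3% and 25.9% of all genes. Ppargc1a, a coactivator that raises mitochondrial and gluconeogenic genes, rose from a mean of 5.66 to 7.87 in vector cells (2.22, SE 0.27, limma adjusted p = 6.25e-05) and from 5.65 to 7.59 in R132C cells (1.93, SE 0.27, adjusted p = 0.000277). Nrf1, a transcription factor of respiratory chain genes, changed by -0.75 (SE 0.14) and -0.76 (SE 0.14). Opa1, which fuses the inner membrane, changed by -0.62 (SE 0.12) and -0.57 (SE 0.12), and Tomm70a, an import receptor, by -0.68 (SE 0.096) and -0.65 (SE 0.096), all called. The related coactivator Ppargc1b rose by 1.32 (SE 0.21, adjusted p = 0.000442) in vector cells and changed by 0.21 (SE 0.21, adjusted p = 0.541) in R132C cells, and the difference between the plate effects, -1.11 (adjusted p = 0.277), was not called. On collagen Ppargc1b was higher by 1.21 (SE 0.21, adjusted p = 0.0162) with R172K than with wild-type IDH2 and by 0.98 (SE 0.15, adjusted p = 0.00469) in the mean of both mutants. It was the 1 gene of this list of 32 (3.125%) called in either comparison, against 1.73% and 3.61% of all genes.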
